A study of Mus musculus with 33 samples.

Results

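Transcripts of 10 genes that make, recycle or clear nicotinamide and nicotinamide adenine dinucleotide (NAD) were followed in mice given nicotinamide (NAM), a form of vitamin B3, in their drinking water. The 10 genes (Nampt, Nmnat1, Nmnat3, Nmrk1, Naprt, Nadsyn1, Qprt, Nadk, Nnmt and Aox1) were chosen by name, and each matched 1 row of the 56414 in the deposited table. The animals were tumour-free C57Bl/6 mice, and no genetic change is given for any group. Treated mice drank water with 0.5% NAM for 1, 3 or 14 days, and the controls were untreated. PolyA RNA was sequenced in 33 libraries. The labels have the RNA taken from spleens and lymph nodes removed from the mice, and the study's text speaks of splenocytes and lymph node cells. Of these, 20 are labelled spleen, with 5 per group, and 13 are labelled lymph node (untreated, n = 3; 1 day, n = 2; 3 days, n = 4; 14 days, n = 4). Replicates carry a number, and nothing in the labels says that each came from its own mouse, so the p values below measure the spread between libraries.

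NAM enters the NAD pool through salvage. NAMPT, the rate-limiting enzyme of this route, joins NAM to a ribose phosphate to give nicotinamide mononucleotide, and the NMNAT enzymes convert that mononucleotide to NAD. NMRK1 makes the same mononucleotide from nicotinamide riboside. NAPRT starts the parallel route from nicotinic acid, QPRT ends the route from tryptophan, and both feed NADSYN1, which makes NAD by amidation. NADK phosphorylates NAD to NADP. NNMT methylates NAM, which commits it to excretion, and aldehyde oxidase, encoded by Aox1, oxidizes the methylated product. Nnmt is known for its high expression in liver and adipose tissue.

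The organ labels go against the marker genes in 33 of 33 libraries. Under the spleen label, the spleen transcription factor Nkx2-5 was at 0 in 20 of 20 libraries and Tlx1 reached at most 4.07 normalised counts, whereas Glycam1, a product of the high endothelial venules of lymph nodes, ranged from 108167 to 214210. Under the lymph node label, Nkx2-5 ranged from 167 to 267, Tlx1 from 351 to 573 and Glycam1 from 1.59 to 12.4. The libraries are therefore named below only as labelled. The summed level of 10 adipocyte markers lay between 42212 and 588676 in libraries labelled spleen. In those labelled lymph node it lay between 1253 and 2343, and the lipid droplet gene Plin1 was at 0 in 7 of 13 libraries and the hormone gene Lep in 12 of 13. In addition, 1 library labelled lymph node at 1 day (replicate 1) had a summed level of 112479 for 10 pancreatic markers, against 14.5 in the other library of its group. Counted reads per library numbered 18325061 to 54830743 for the spleen label, and 30424968 to 46733974 for the other. Under the spleen label all 5 libraries at 3 days were deeper (43632016 to 54830743) than the untreated ones (18325061 to 31486631). The part of depth in the comparison at 3 days was not tested. Levels are given as normalised read counts, which are read counts divided by a size factor for the library.

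The positions of the genes are those deposited by the authors on the mm10 assembly, and their exons are taken from the GENCODE M21 annotation. Nampt lies at chr12:32820335-32853369, Nmnat1 at chr4:149467572-149485296, Nmnat3 at chr9:98287454-98420394 and Nmrk1 at chr19:18631961-18652191. Naprt lies at chr15:75890964-75894484, Nadsyn1 at chr7:143795588-143822852, Qprt at chr7:127107771-127122045 and Nadk at chr4:155562392-155590989. Nnmt lies at chr9:48591877-48605125 and Aox1 at chr1:58029961-58106410. Exons of Naprt overlap exons of Eef1d, an elongation factor gene on the same strand, so reads of these 2 genes may be shared. The exons of the other 9 genes overlap no other annotated gene.

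Promoter windows of RefSeq (GRCm38.p6) were matched for 8 of the 10 genes, with 10 windows in all; Nnmt and Naprt were not matched. The GC box (GGGCGG, both strands) occurred in 7 of these 10 windows, and in 32.7% of all 32851 windows. The E-box CACGTG occurred in 1 window, that of Nadk, against 6.0% of all windows, and the TATA box TATAAA occurred in 0, against 12.4%. Below, 250 bases upstream of the RefSeq start are shown for 2 genes, Nampt, the entry of NAM into salvage, and Qprt, whose mean was below the untreated one at all 3 times under the spleen label without a call. The first bases of the Qprt gene, at the deposited position given above, fall within its window. Capitals mark the GC box on either strand. The Nampt window (chr12:32820085-32820334, plus strand) is 75.6% G or C and holds 5 matches, and the Qprt window (chr7:127122030-127122279, minus strand) is 60.8% G or C and holds 0 matches.
Nampt: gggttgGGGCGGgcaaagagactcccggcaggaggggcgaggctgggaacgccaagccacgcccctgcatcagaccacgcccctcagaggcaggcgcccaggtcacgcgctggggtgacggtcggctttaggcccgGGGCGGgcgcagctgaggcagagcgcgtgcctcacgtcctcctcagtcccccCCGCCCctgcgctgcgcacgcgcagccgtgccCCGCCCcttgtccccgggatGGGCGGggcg
Qprt: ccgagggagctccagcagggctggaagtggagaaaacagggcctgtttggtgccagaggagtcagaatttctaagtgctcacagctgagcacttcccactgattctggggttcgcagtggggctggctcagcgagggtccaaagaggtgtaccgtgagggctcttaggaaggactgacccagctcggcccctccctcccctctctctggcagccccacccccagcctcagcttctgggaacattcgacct
A match describes these letters only.

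Nadk and Nampt were the most abundant of the 10 transcripts in untreated mice under both labels. Per kilobase of annotated exon, untreated libraries labelled spleen had a level of 901 ± 101 (SD, n = 5) for Nadk and 525.96 ± 73.1 for Nampt. Nnmt came next at 176 ± 69.8, then Nadsyn1 at 142 ± 5.50, and the ranges of these 2 genes overlapped. Naprt (90.6 ± 11.7), Nmnat1 (87.7 ± 18.7) and Qprt (85.1 ± 13.4) followed and lay within their spread of one another. The lowest were Aox1 (48.1 ± 23.7), Nmrk1 (30.7 ± 5.44) and Nmnat3 (24.6 ± 6.21). Under the lymph node label Nnmt was below Nadsyn1, Nmnat1 and Naprt, at 69.8 ± 9.28 (SD, n = 3), and Aox1 was last at 14.1 ± 2.47. The parts of each gene over which reads were counted are not given for these libraries, so these levels per length are approximate.

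**Figure D1:**
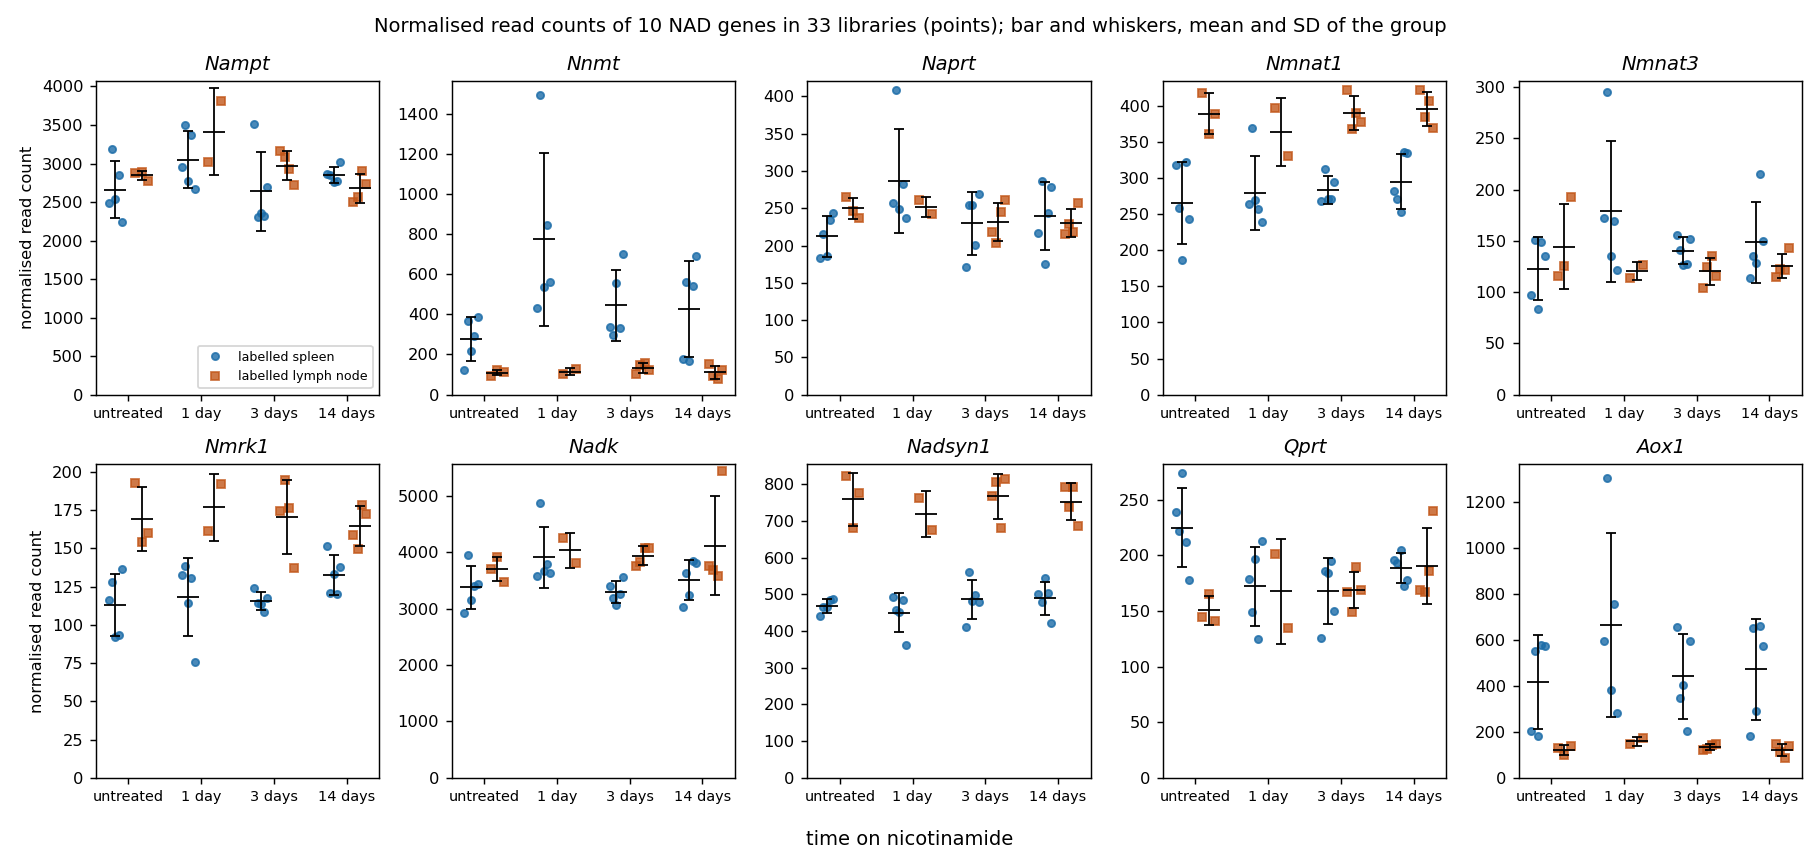
Normalised read counts (y axes, linear from 0) of the 10 genes against time on NAM (x axes). Points are libraries, circles labelled spleen and squares labelled lymph node, with the mean and SD of each group in black. Nnmt at 1 day under the spleen label sits between 429 and 1492, above all 5 untreated libraries, whereas under the lymph node label it stays between 77.8 and 159 throughout.

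Nnmt, which methylates NAM, rose at 1 day under the spleen label, and limma without a covariate called no other of the 10 genes over all libraries against untreated ones at any time. Untreated libraries had 123, 367, 217, 293 and 389 normalised counts, and libraries at 1 day had 429, 1492, 537, 847 and 563. All 5 treated libraries were above all 5 untreated ones, and replicate 2 stood far above the others. The mean went from 278 ± 110 (SD, n = 5) to 774 ± 430 (n = 5). This was a 2.71-fold rise, or 1.44 on the log2 scale (SE 0.42, 95% interval 0.55 to 2.32), with an adjusted p of 0.0259 by limma. Across all genes 16.6% passed the same threshold in this comparison (3030 of 18243, adjusted p at most 0.05), so 1 call among 10 genes is no more than the background gives. At an unadjusted p under 0.05 there were 5 of the 10 (Nnmt, Naprt, Nmnat3, Nadk and Qprt), against 30.9% of all genes. The 10 genes had a median log2 change of 0.21, against 0.005 over all genes. The call depended on single libraries: without replicate 2 at 1 day the log2 change was 1.16 with an adjusted p of 0.0713, without replicate 4 at 1 day 1.37 and 0.0578, without untreated replicate 1 1.17 and 0.0759, and without untreated replicate 3 1.38 and 0.0509 (limma). At 3 days Nnmt had 337, 296, 558, 330 and 699 counts and at 14 days 176, 563, 170, 542 and 689. Both groups overlapped the untreated one, with log2 changes of 0.70 (adjusted p = 0.355) and 0.50 (adjusted p = 1) by limma. From 1 to 14 days the log2 change was -0.94 (95% interval -1.83 to -0.05), with an adjusted p of 0.166 by limma.

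Adipocyte markers moved together with Nnmt in these libraries. Their summed level ranged from 42212 to 227348 in untreated libraries labelled spleen, from 137758 to 588676 at 1 day, from 67754 to 270818 at 3 days and from 58261 to 290549 at 14 days. At 1 day 1 of the 10 markers was called higher and 0 lower, with a median log2 change of 0.98 over the list. The library with the highest Nnmt count, replicate 2 at 1 day, also had the highest adipocyte marker level. With the mean log2 level of the 10 markers as a covariate, the log2 change of Nnmt at 1 day was 0.74 and its adjusted p 0.0253 (limma). Fibroblast markers were called in 0 of 8 at 1 day, with summed levels of 27363 to 100218 in untreated and 29314 to 99464 in treated libraries, and with their level as a covariate the log2 change of Nnmt was 1.58 (adjusted p = 0.000184, limma; a setting chosen after seeing the data). With pancreatic markers as a covariate, also chosen after seeing the data, it was 1.26 (adjusted p = 0.0535, limma). The pancreatic list was near the floor under this label, and 1 of its 10 genes passed the filter. Its summed counts were 3.5 to 69.6 in untreated libraries and 12.5 to 174.5 at 1 day. The summed level of 7 hepatocyte markers was 4547 to 15544 at 1 day and 982 to 5745 in untreated libraries. Over the 20 libraries Cyp2e1 ranged from 774 to 14979 and Alb from 40.7 to 470, and Fga and Ttr were at 0 in 19 and 16 libraries. At 1 day 0 of the 3 hepatocyte markers that could be tested were called by limma, and their part in the change of Nnmt was not tested. In RNA of mixed cells, more cells of a type and more RNA per cell cannot be told apart.

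Aox1, the oxidase that acts on the methylated product, varied widely under the spleen label, with no change detected by limma without a covariate. It had 203, 551, 182, 580 and 573 counts in untreated libraries and 598, 1305, 384, 756 and 284 at 1 day. The groups overlapped, and the log2 change was 0.65 (95% interval -0.31 to 1.61, adjusted p = 0.355, limma), or 0.35 without replicate 2 at 1 day. With the adipocyte marker level as a covariate it was -0.18 (adjusted p = 0.439). With the fibroblast marker level, chosen after seeing the data, it was 0.80 (adjusted p = 0.0348, limma). At 3 and 14 days the log2 changes were 0.15 and 0.19, with intervals from -0.81 to 1.10 and from -0.76 to 1.15.

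The salvage genes showed no change detected by limma without a covariate at any time under the spleen label. Nampt had 2481, 3190, 2533, 2851 and 2236 counts in untreated libraries and 2959, 3494, 2771, 3366 and 2664 at 1 day. The groups overlapped, with a log2 change of 0.20 (95% interval -0.03 to 0.43, adjusted p = 0.228, limma), or 0.09 with the adipocyte covariate. At 3 and 14 days the change was -0.02 and 0.11, and the upper ends of the intervals were 0.21 and 0.35. Nmnat3, the mitochondrial member of the NMNAT family, had 97.0, 151, 83.0, 149 and 135 counts in untreated libraries and 172, 295, 135, 169 and 122 at 1 day. Here 3 of 5 treated libraries were above all untreated ones, for a log2 change of 0.50 (interval 0.05 to 0.96, adjusted p = 0.121, limma). The change of Nmnat3 was 0.31 without replicate 2 at 1 day and 0.19 with the adipocyte markers as a covariate (adjusted p = 0.420, limma). With the fibroblast markers, chosen after seeing the data, that of Nmnat3 was 0.57 (adjusted p = 0.00871, limma). Nmnat1, its nuclear counterpart, changed by 0.08 (interval -0.21 to 0.38) and the riboside kinase gene Nmrk1 by 0.05 (interval -0.27 to 0.37) at 1 day. Their changes at 14 days were 0.17 and 0.24 on the log2 scale, both with an adjusted p of 1 by limma.

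Genes of the routes from nicotinic acid and tryptophan went in different directions in their means. Naprt had 184, 216, 185, 234 and 244 counts in untreated libraries and 257, 409, 249, 282 and 237 at 1 day under the spleen label. All but 1 of the treated libraries lay above the untreated range, with a log2 change of 0.41 (95% interval 0.07 to 0.75, adjusted p = 0.0938, limma), or 0.28 without replicate 2. With the adipocyte markers as a covariate it was 0.22 (adjusted p = 0.292, limma). With the fibroblast markers, chosen after seeing the data, it was 0.46 (adjusted p = 0.0085, limma). Qprt had 239, 222, 274, 212 and 178 counts in untreated libraries, 179, 149, 197, 125 and 213 at 1 day, and 125, 186, 184, 195 and 150 at 3 days. The treated libraries of both times overlapped the low end of the untreated range. Its log2 change was -0.39 (interval -0.71 to -0.08, adjusted p = 0.0792) at 1 day, -0.42 (interval -0.74 to -0.11, adjusted p = 0.1002) at 3 days and -0.24 (interval -0.56 to 0.07, adjusted p = 1) at 14 days by limma. With the adipocyte covariate the change at 1 day was -0.22 (adjusted p = 0.246, limma). With the fibroblast covariate it was -0.42 at 1 day (adjusted p = 0.0214, limma) and -0.52 at 3 days (adjusted p = 0.0140, limma). The change of Qprt at 1 day had an adjusted p of 0.05 or less when untreated replicate 5 or replicate 5 at 1 day was left out. Nadsyn1, which both routes share, lay within 442 to 486 counts in untreated libraries and changed by -0.07, 0.05 and 0.06 on the log2 scale at 1, 3 and 14 days, with no interval reaching beyond 0.26 in either direction.

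Nadk, the kinase that makes NADP, had 2930, 3946, 3159, 3402 and 3442 counts in untreated libraries labelled spleen and 3582, 4876, 3675, 3794 and 3638 at 1 day. The single value of 4876 came from replicate 2, and the other 4 lay within the untreated range. The log2 change was 0.21 (95% interval 0.02 to 0.40, adjusted p = 0.127, limma), 0.13 without replicate 2 and 0.07 with the adipocyte markers as a covariate (adjusted p = 0.439). With the fibroblast markers, chosen after seeing the data, it was 0.24 (adjusted p = 0.0069, limma). At 3 and 14 days the log2 change without a covariate was -0.03 and 0.06.

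At 3 days 0 of the 10 genes were called under the spleen label by limma, where 5.55% of all genes were. By edgeR and DESeq2 0 were called, against 5.94% and 9.24% of all genes. With an unadjusted limma p under 0.05 there was 1, Qprt, against 22.0% of all genes. At 14 days 0 of the 10 were called by any of these tools and 0 had an unadjusted p under 0.05. At that time limma called 0 of 18243 genes, a share of 0%, with 510 at an unadjusted p under 0.05, and edgeR called 0 and DESeq2 1. Between 14 days and 1 day limma called 0 of the 10, against 10.6% of all genes. Of the 10, 1, Nnmt, had an unadjusted limma p under 0.05, against 25.7% of all genes. By edgeR and DESeq2 0 were called, against 10.7% and 12.4% of all genes.

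**Figure D2:**
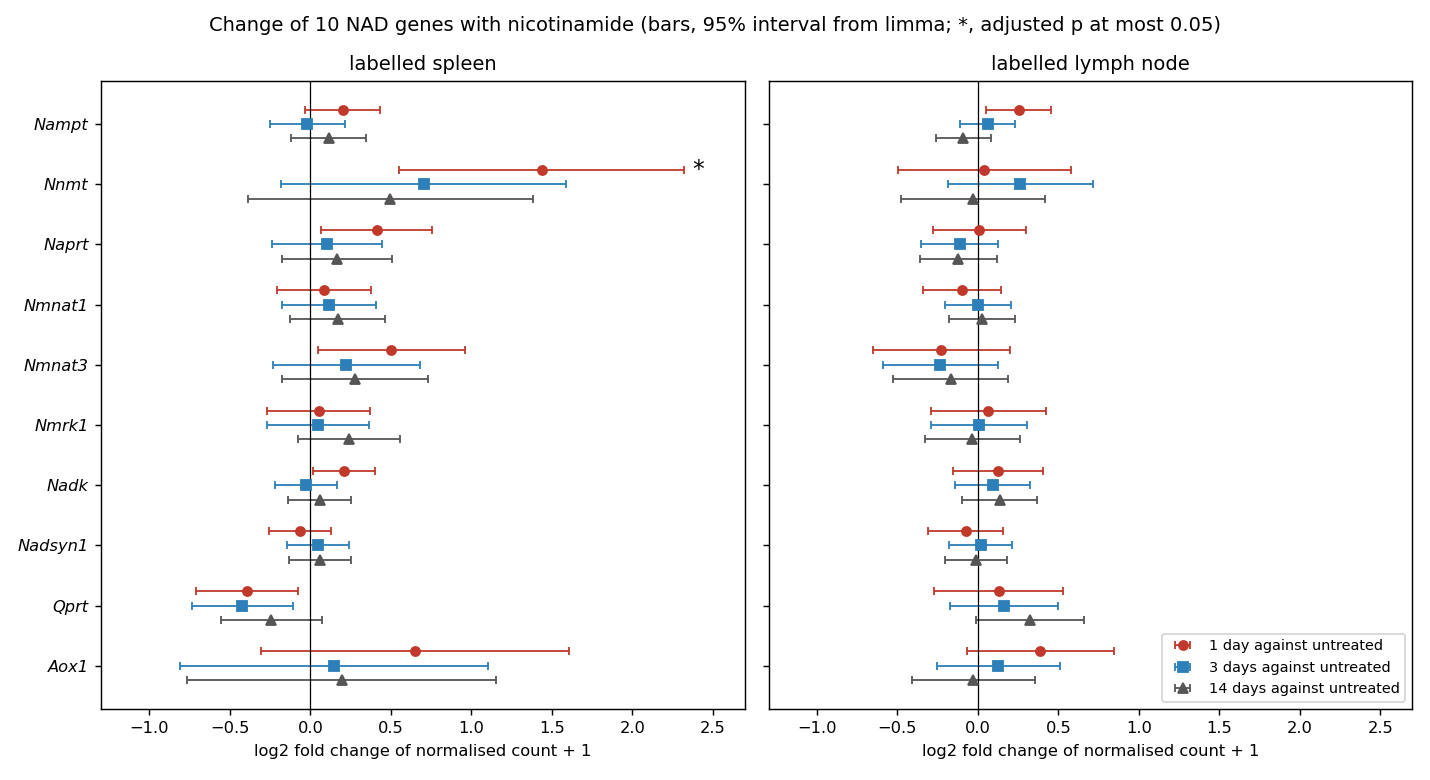
Log2 fold change of each gene (x axis; y axis, genes) at 1, 3 and 14 days against untreated libraries of the same label, with 95% intervals from limma. The star marks the 1 change past the threshold, that of Nnmt at 1 day under the spleen label (1.44). Other intervals clear of 0 belong to changes that were not called. Under the spleen label those of Qprt at 1 and 3 days lie below 0, and those of Naprt, Nmnat3 and Nadk at 1 day above 0. Under the lymph node label that of Nampt at 1 day lies above 0.

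Under the lymph node label, where the summed adipocyte markers (1253 to 2343) were below those of every library labelled spleen, none of the 10 genes was called at 1, 3 or 14 days by limma, edgeR or DESeq2. Nnmt had 93.9, 122 and 114 counts in untreated libraries, 101 and 125 at 1 day, 103, 148, 159 and 124 at 3 days, and 152, 91.6, 77.8 and 121 at 14 days. These groups overlapped throughout, with log2 changes of 0.04 (95% interval -0.50 to 0.58), 0.26 (-0.19 to 0.71) and -0.03 (-0.48 to 0.42) by limma. Across all genes limma called 1.21% at 1 day, 1.24% at 3 days and 0.791% at 14 days. In the same order edgeR called 1.22%, 1.13% and 0.878%, and DESeq2 2.96%, 2.71% and 2.09%. With an unadjusted limma p under 0.05 there were 1, 0 and 0 of the 10 genes, against 15%, 14.8% and 11.8% of all genes.

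Nampt was the gene with an unadjusted p under 0.05 at 1 day under the lymph node label. It had 2878, 2886 and 2777 counts in untreated libraries, 3015 and 3813 at 1 day, 3161, 3081, 2926 and 2724 at 3 days, and 2494, 2566, 2907 and 2738 at 14 days. Both libraries at 1 day were above all untreated ones, and 1 of them was far higher. The log2 change at 1 day was 0.25 (95% interval 0.05 to 0.46, adjusted p = 0.229, limma). It was 0.42 without replicate 1 at 1 day and 0.08 without replicate 2. The same 2 libraries at 1 day had more of the markers of 2 other cell types. Summed macrophage markers were at 178762 and 184920, against 141185 to 141824 in untreated libraries (3 of 8 called higher), and summed neutrophil markers at 25890 and 35044, against 11580 to 21437 (0 of 10 called by limma). As a description, r between Nampt and these markers was 0.50 and 0.48 over the 13 libraries, and -0.15 and -0.28 within groups. With the macrophage markers as a covariate, chosen after seeing the data, the change of Nampt was 0.30 (adjusted p = 0.575, limma), and the part of the neutrophil markers was not tested. Between 14 days and 1 day it was -0.34 (interval -0.54 to -0.15, adjusted p = 0.102, limma), where 0 of the 10 genes and 0.401% of all genes were called; Nampt was the only one of the 10 with an unadjusted p under 0.05, against 12.8% of all genes. DESeq2 called Nampt in that comparison (adjusted p = 0.0296), along with 2.11% of all genes, and edgeR called 0 of the 10 and 0.587% of all genes. Without the library with pancreatic transcripts (replicate 1 at 1 day), which leaves 1 library assumed to vary like the others, the log2 change was -0.51 with an adjusted p of 0.0490 by limma. Without replicate 2 at 1 day it was -0.17 with an adjusted p of 0.498.

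Qprt under the lymph node label had 145, 165 and 141 counts in untreated libraries and 169, 167, 186 and 240 at 14 days, so that all 4 treated libraries were above all 3 untreated ones. The log2 change was 0.32 (95% interval -0.01 to 0.66, adjusted p = 0.447, limma), and 0.21 without replicate 4 at 14 days. Aox1 had 132, 98.1 and 138 counts in untreated libraries and 146 and 173 at 1 day, a log2 change of 0.39 (interval -0.07 to 0.84, adjusted p = 0.426, limma). Macrophage markers moved with it, and r between Aox1 and their mean log2 level was 0.82 over the 13 libraries and 0.73 within groups, given as a description. With these markers as a covariate, chosen after seeing the data, the log2 change was -0.11 (adjusted p = 0.943, limma). For Naprt, Nmnat1, Nmnat3, Nmrk1, Nadk and Nadsyn1 the log2 changes lay between -0.23 and 0.13 over the 3 times. Markers of red cell precursors fell under this label, in 10 of 10 genes at 3 days (median log2 change -3.17) and in 4 of 10 at 14 days. With their mean log2 level as a covariate, 0 of the 10 genes were called by limma at any of the 3 times, and of all 18215 genes 136, 0 and 1 were called at 1, 3 and 14 days.

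The change with NAM was compared between the labels in 1 fit over the 33 libraries. At 1 day 0 of the 10 genes differed at an adjusted p of 0.05, where 1.55% of all genes did. Nnmt had a difference of 1.40 on the log2 scale (spleen label minus lymph node label, 95% interval 0.09 to 2.704, adjusted p = 0.268, limma) and Nmnat3 one of 0.73 (interval 0.03 to 1.44, adjusted p = 0.284), and these 2 of the 10 had an unadjusted p under 0.05, against 16.4% of all genes. So the rise of Nnmt was not shown to be particular to the spleen label. At 3 days 0 of the 10 were called, against 0.738% of all genes, and at 14 days 0, against 0.124%. Qprt was the only one of the 10 with an unadjusted p under 0.05 at each of these times, with differences of -0.58 (interval -1.05 to -0.12, adjusted p = 0.250) and -0.57 (interval -1.03 to -0.10, adjusted p = 0.840) by limma. Of all genes 12.7% and 4.99% passed that unadjusted threshold.

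Across the 20 libraries labelled spleen, 7 of the 10 genes varied with the adipocyte markers, with r of at least 0.59 in size. Of the 18233 genes tested that were not among these markers, 22.9% had an r of that size (13.6% positive, 9.26% negative), and nothing is read from the count of 7 as particular to the NAD genes. Pearson's r between a gene's log2 level and the mean log2 level of the 10 markers was highest for Aox1 at 0.95 (Spearman's rho 0.93), followed by Nnmt at 0.87 (rho 0.80), Nadk at 0.84 (rho 0.78) and Nmnat3 at 0.84 (rho 0.84). Naprt had r = 0.72 (rho 0.66) and Nampt r = 0.59 (rho 0.62). Qprt ran the other way, with r = -0.66 (rho -0.73). For these 7 genes the permutation p, adjusted over the 10 relations, was at most 0.00889 for r and 0.00707 for rho. For Aox1, Nnmt and Nmnat3 the unadjusted permutation p for r was 1e-05, the smallest that 100000 permutations can give. Nmnat1 (r = 0.36, rho 0.32), Nmrk1 (r = 0.21, rho 0.32) and Nadsyn1 (r = -0.10, rho -0.18) gave adjusted permutation p of 0.145, 0.421 and 0.663 for r. Within the 4 treatment groups r was 0.95 for Aox1, 0.87 for Nnmt, 0.85 for Nadk, 0.81 for Nmnat3, 0.67 for Naprt, 0.54 for Nampt and -0.66 for Qprt, all with an adjusted permutation p of at most 0.0193; of the same 18233 genes 35.8% had an r of at least 0.54 in size within groups. Without the 2 libraries farthest from the median marker level, r was 0.96, 0.76, 0.74, 0.75, 0.56, 0.48 and -0.59 for the same genes in the same order. Other marker lists ran along with the same genes, given here as a description. Over the 20 libraries, r with the mean level of 8 fibroblast markers was 0.73 for Aox1, 0.69 for Nadk, 0.60 for Nmnat3, 0.59 for Naprt and 0.58 for Nnmt, each below its r with adipocyte markers. Within groups it was 0.80, 0.81, 0.77, 0.73 and 0.82 for the same genes in the same order, and that of Naprt was above its 0.67 with adipocyte markers. Markers of red cell precursors had r of 0.70 with Nadk and 0.68 with Nampt over the 20 libraries, and 0.66 and 0.61 within groups. Hepatocyte markers had r of 0.67 with Aox1, 0.62 with Naprt and 0.56 with Nnmt, and pancreatic markers 0.66 with Nmnat3 and 0.59 with Aox1. The pancreatic markers summed to at most 174.5 counts in any of the 20 libraries, so their level was near the floor. These libraries share the size factor scaling, and a larger share of one tissue lowers the share of the others in the same library.

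**Figure D3:**
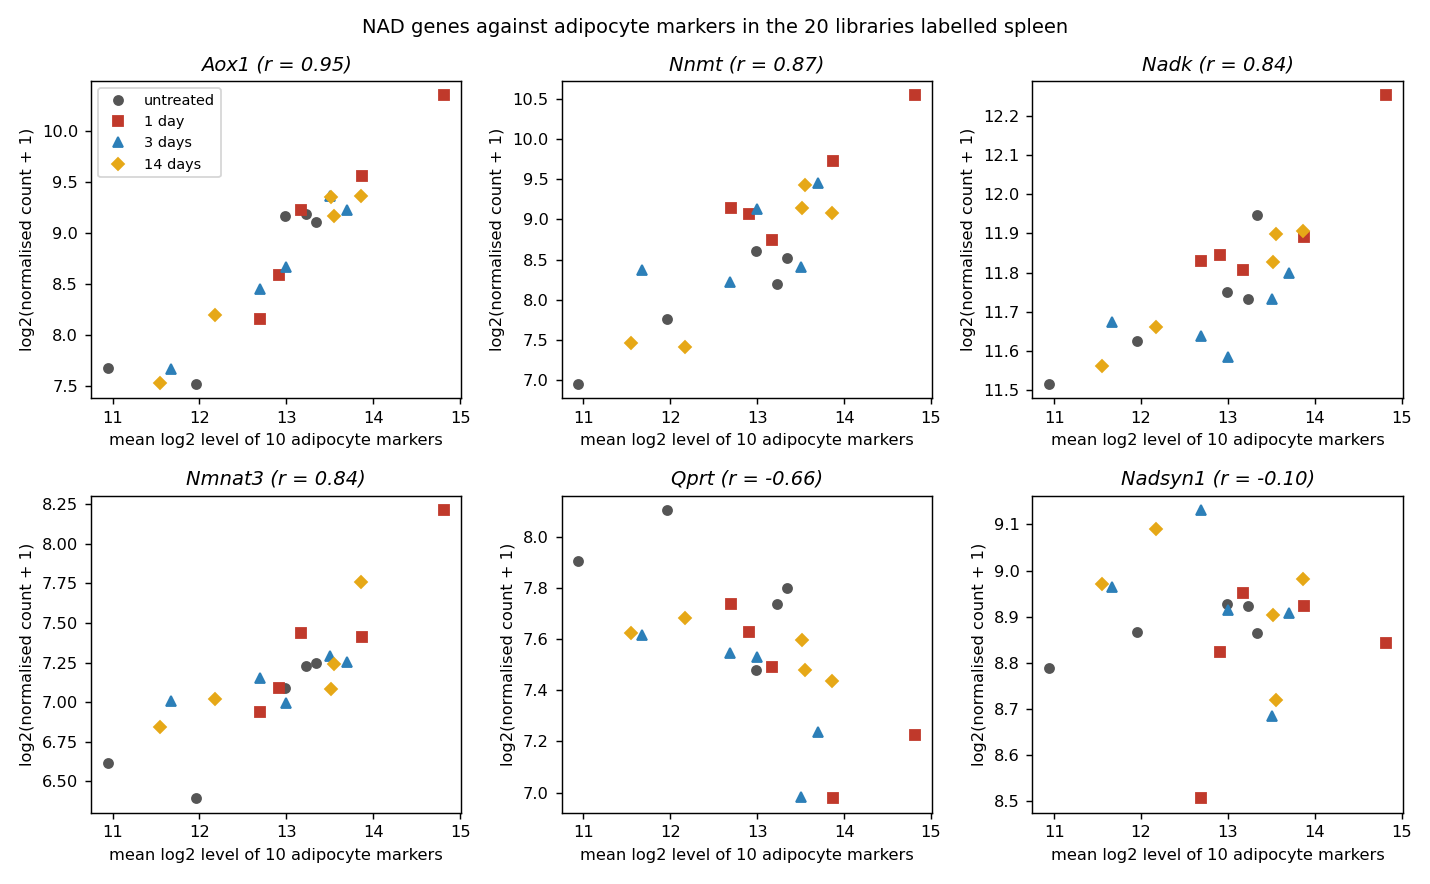
Log2 normalised count plus 1 of 6 of the genes (y axes) against the mean log2 level of 10 adipocyte markers (x axes) in the 20 libraries labelled spleen, 1 point per library and 1 colour and shape per time on NAM. Aox1 (r = 0.95) follows the markers through all groups, Qprt (r = -0.66) runs against them, and Nadsyn1 (r = -0.10) shows no detected relation.

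The untreated libraries of the 2 labels differed in 6 of the 10 genes, at a background of 64% of all genes called. Both labels were first put on 1 scale. Nnmt was higher under the spleen label, at 291 ± 114 (SD, n = 5) against 105 ± 13.6 (n = 3), a log2 difference of 1.37 (SE 0.42, adjusted p = 0.00589, limma). Aox1 was higher by 1.74 (SE 0.45, adjusted p = 0.00124), at 437 ± 214 against 117 ± 20.5, and Qprt by 0.71 (SE 0.17, adjusted p = 0.000537), at 236 ± 38.1 against 143 ± 12.2. In each of these 3 genes, 5 of 5 libraries labelled spleen were above all 3 labelled lymph node. The share of all genes that separate in this way was not computed. Nadsyn1 was lower under the spleen label, at 491 ± 16.2 against 722 ± 70.0, by -0.55 (SE 0.10, adjusted p = 1.92e-05, limma). Nmnat1 differed by -0.43 (SE 0.14, adjusted p = 0.00896) and Nmrk1 by -0.45 (SE 0.16, adjusted p = 0.0177), although Nmrk1 was not called without untreated replicate 1 of the lymph node label (adjusted p = 0.111, limma). In the counts as deposited, the ranges of these lower genes did not overlap either. Under the spleen and the lymph node label they were 442 to 486 and 680 to 822 for Nadsyn1. They were 187 to 323 and 362 to 418 for Nmnat1, and 91.9 to 136 and 154 to 193 for Nmrk1. Nampt was at nearly the same level under both labels, 2788 ± 389 against 2706 ± 62.0, with a log2 difference of 0.03 (95% interval -0.21 to 0.27). Nadk (0.01, interval -0.23 to 0.24), Naprt (-0.10, interval -0.44 to 0.24) and Nmnat3 (-0.09, interval -0.56 to 0.37) were not called either. The organ and the processing of the 2 sets of libraries cannot be told apart in this comparison.

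**Figure D4:**
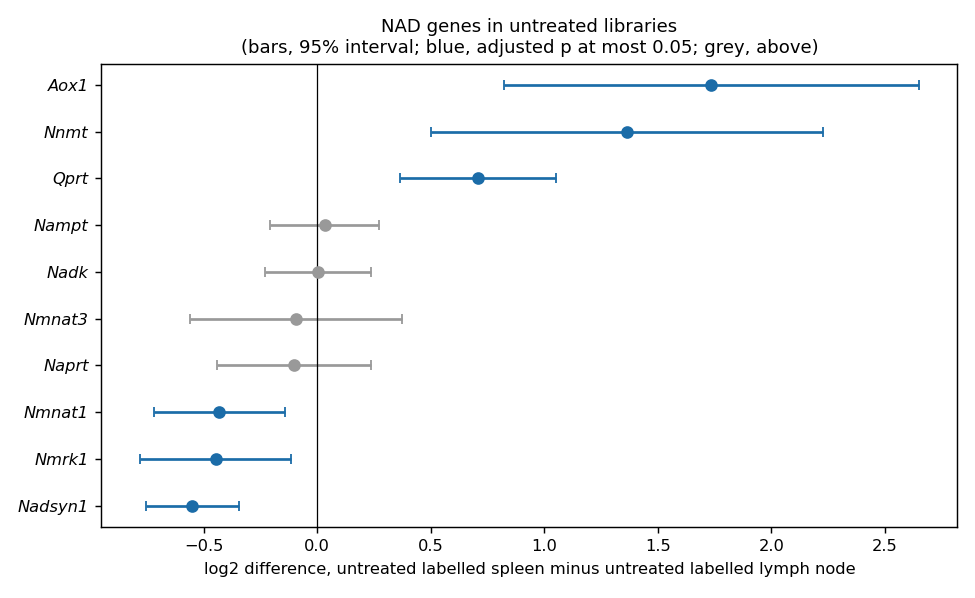
Log2 difference of each gene between untreated libraries labelled spleen (n = 5) and labelled lymph node (n = 3), with 95% intervals from limma (x axis; y axis, genes ordered by difference). Blue marks an adjusted p of at most 0.05: Aox1 (1.74), Nnmt (1.37) and Qprt (0.71) lie above 0, and Nmnat1, Nmrk1 and Nadsyn1 lie below.

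A wider list of 26 other NAD genes, which covers the tryptophan route, nucleoside breakdown, NAD transport and NAD repair, held few calls with NAM. Under the spleen label 21 of them could be tested, and 1 rose at 1 day, where 16.6% of all genes were called. This was Slc25a51, which carries NAD into mitochondria, at 2309 ± 228 counts in untreated and 2885 ± 353 at 1 day (log2 change 0.32, adjusted p = 0.0280, limma). The median log2 change of the list was 0.04, and 5 of the 21 had an unadjusted p under 0.05, against 30.9% of all genes. At 3 and 14 days 0 were called by limma, with 2 and 0 at an unadjusted p under 0.05 (all genes, 22.0% and 2.80%). Under the lymph node label 18 could be tested and 0 were called at 1 day by limma (3 at an unadjusted p under 0.05, against 15% of all genes). At 3 days 2 of the 18 were called, where 1.24% of all genes were. Nadk2, the mitochondrial NAD kinase gene, fell from 694 ± 76.6 to 476 ± 48.7 (log2 change -0.54, adjusted p = 0.0127), and Pnp2, a purine nucleoside phosphorylase gene, fell from 252 ± 69.0 to 92.5 ± 9.73 (log2 change -1.40, adjusted p = 0.00918, limma). At 14 days 1 of the 18 was called, Nadk2, where 0.791% of all genes were. It was still lower, at 495 ± 45.3 (log2 change -0.48, adjusted p = 0.0370, limma). Pnp2 shares sequence with Pnp, so its reads may be divided between the 2 genes. The red cell markers fell in the same libraries, and with their mean log2 level as a covariate the log2 change at 3 days was -0.20 (95% interval -0.63 to 0.24) for Nadk2 and -0.52 (interval -1.57 to 0.53) for Pnp2, and that of Nadk2 at 14 days was -0.26 (interval -0.58 to 0.06). None of these 3 values was called by limma with the covariate, a setting added after seeing the data, and the intervals still hold the changes found without it. The marker level was 9.23 to 9.91 in untreated libraries, 5.523 to 7.77 at 3 days and 7.26 to 8.575 at 14 days. Since it does not overlap between these groups, the fit cannot separate it from treatment. Of all 18215 genes it called 0 at 3 days and 1 at 14 days.

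In untreated libraries 14 of 21 testable genes of the wider list differed between the labels, with 4 higher and 10 lower under the spleen label, at the background of 64% given above. Genes of the tryptophan route differed in both directions. Lower were Kmo at 878 ± 85.6 against 1782 ± 59.7 (log2 difference -1.03, adjusted p = 6.64e-09), Kynu at 539 ± 67.9 against 942 ± 36.3 (-0.81, adjusted p = 5.04e-07) and Haao at 985 ± 80.2 against 1644 ± 89.6 (-0.74, adjusted p = 2.21e-07, limma). These 3 genes act one after another upstream of the QPRT step. Ido2, a dioxygenase gene of the first step, was higher, at 19.5 ± 11.7 against 2.65 ± 2.96 (adjusted p = 0.00102), and its relative Ido1 had 178 ± 210 against 12.9 ± 5.73 (adjusted p = 0.0555, limma). Both were chosen after their values were seen. Pnp (2332 ± 149 against 3939 ± 231) and Nadk2 (424 ± 45.1 against 659 ± 71.0) were also lower. Cyp2e1, a cytochrome P450 gene of liver and adipose tissue, was at 3762 ± 2476 under the spleen label and at 3.37 ± 2.92 under the lymph node label. It is also on the hepatocyte marker list.

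Over all libraries labelled spleen, the 3 genes whose log2 levels were most like those of Nnmt were Tst (r = 0.96), Cmbl (r = 0.95) and Pex19 (r = 0.94), over 20 libraries that share the variation in adipocyte markers described above.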

How the data were processed

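PolyA RNA from 20 libraries labelled spleen and 13 labelled lymph node was sequenced, and groups and replicate numbers were read from the sample titles. The authors deposited 1 table of normalised read counts (a linear signal per gene, read counts divided by DESeq2 size factors, separately for each label). Per the submitters' processing notes, STAR 2.4.0 and mm10 were used. Counting over constitutive regions is stated in the study's methods only for other libraries; the regions counted and the strand setting for these libraries are not given in the sources used here. Unmapped columns numbered 0. All non-zero values were whole multiples of the worth of 1 read (100%, tolerance 0.05 reads), so whole reads were recovered; 56 replicate pairs held 0 identical libraries.

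The 10 genes, the wider list and the marker lists were chosen with earlier results of these data known, and all 10 genes are named in each comparison. Of the wider list, genes past the threshold are named, at most 6 per comparison, and the 3 genes most like a changed gene by Pearson's r. The main test was limma 3.58.1 (R 4.3.3, trend) on log2(normalised count + 1), two-sided, for rows with a mean of 10 or more, with all 4 groups of a label in 1 fit and Benjamini-Hochberg adjustment over all genes tested; the threshold was 0.05. Fold changes are on this scale and understate changes of low genes. All 10 genes passed the filter under both labels. Labels were compared after joint median-of-ratios scaling, which shifted values by a median of 0.06 (spleen) and -0.07 (lymph node) on the log2 scale. Alternatives were other pseudocounts (0.1, 5), filters (none, 50), library weights, quantile scaling, 2 groups alone, a replicate block, marker covariates, an unadjusted p with a 1.5-fold change, leaving out each library, and edgeR 4.0.16 and DESeq2 1.42.0 on recovered reads. Scripts were tested on simulated data. Intervals are 95%.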

Additional observations from a re-analysis of the deposited data

Results flagged for a closer look

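Of 60 sets of 4 or 5 libraries searched (each gene in each group large enough), 4 had 1 library whose distance from its nearest neighbour was large for the range of its group; chance gives about 1 in 20. For 3 of them the library was replicate 2 at 1 day under the spleen label, the one with the highest adipocyte marker level. Its normalised counts were 409 for Naprt (the others 237 to 282), 370 for Nmnat1 (239 to 270) and 4876 for Nadk (3582 to 3794). The fourth was Nadk in a library labelled lymph node (14 days, replicate 4), at 5437, where the other 3 libraries of its group had 3585 to 3761.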

How the results depend on the processing

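Of 2270 alternative values of single genes, 159 had the other sign than the value reported, 0 of them for a called change, among them Aox1 at 1 day under the spleen label with the adipocyte covariate (-0.18 against 0.65), Nmnat1 at 1 day without replicate 2 (-0.02 against 0.08) and, in libraries labelled lymph node, Nadk at 14 days without replicate 4 (-0.01 against 0.13). At 1 day under the spleen label, the count of the 10 genes called was 1 in the main fit, 0 with library weights or a pancreatic marker covariate, 6 with a fibroblast marker covariate (Nnmt, Naprt, Nmnat3, Nadk, Qprt and Aox1), and from 0 to 2 when single libraries were left out. Of all genes, 16.6%, 21.6%, 15.4%, 27.2% and from 12.5% to 15.8% were called in these fits, in the same order. Nnmt kept its side of the threshold in 19 of 25 alternatives, with a log2 change of 0.74 to 1.61. With the fibroblast covariate, 2 genes were called at 3 days (Nnmt and Qprt) and 1 between 14 days and 1 day (Nnmt), where it called 16.9% and 16.5% of all genes; an unadjusted p with a 1.5-fold change also gave 1 between 14 days and 1 day (Nnmt; 5.17% of all genes). Between 14 days and 1 day under the lymph node label the count was 0 (0.401% of all genes) and 1 with DESeq2 (2.11%). It was 0 when single libraries at 14 days were left out, where 0.0934% to 0.703% of all genes were called. Leaving out 1 of the 2 libraries at 1 day leaves 1 in that group, so no count is given. The log2 change of Nampt was then -0.51 without replicate 1 and -0.17 without replicate 2. The cause of these shifts was not tested. The fibroblast, macrophage and pancreatic covariates were chosen after seeing the data.

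Replicate numbers did not pair the samples: libraries with the same number had correlations of their deviations from -0.50 to 0.47 among those labelled spleen, and from -0.11 to 0.08 among those labelled lymph node. With a replicate block 1 gene was called at 1 day under the spleen label, where 16.7% of all genes were. In each other comparison of either label 0 were called, so the block changed no call. Of all genes, the block fit called 5.48% at 3 days, 0% at 14 days and 10.8% between 14 days and 1 day under the spleen label. Under the lymph node label it called 0.725%, 0.917%, 0.664% and 0.28% at 1, 3 and 14 days and between 14 days and 1 day. With 2 libraries at 1 day, intervals under the lymph node label were wider there than at 3 or 14 days.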
